A study of Mus musculus with 9 samples.

Results

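Itga6, Itgb4, Itga3, Itgb1, Col17a1, Lama3, Lamb3, Dst and Plec encode proteins that hold epithelial basal cells to the basement membrane. They were taken as a list of named genes and found by symbol among the 49585 genes in the deposited files. All 9 were present, and all 9 passed the filter on low values that left 15867 genes for testing.

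A hemidesmosome is a rivet-like junction on the basal face of an epithelial cell. Integrin α6β4 spans the membrane together with the collagen XVII chain, binds laminin-332 outside the cell, and is tied inside the cell to keratin filaments by the plakins plectin and dystonin (BPAG1). Integrin α3β1 binds the same laminin but connects to actin through focal adhesions. In the prostate, basal cells lie on the basement membrane, and integrin α6 is widely used as a surface marker to sort them.

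The organoids were grown for 5 days from flow-sorted prostate basal cells of C57BL/6J mice, with 3 libraries in each of 3 groups. The BM group had the basic organoid medium, advanced DMEM/F12 with B27, HEPES, GlutaMAX, penicillin-streptomycin and N-acetylcysteine. It also held EGF, Noggin (which binds BMPs), A83-01 (which blocks TGF-β type I receptors) and Y-27632 (which blocks ROCK), and all of these were present in every group. The R group had in addition R-spondin1 at 500 ng/ml, which raises the response to Wnt ligands. The RD7 group had R-spondin1 at 500 ng/ml and 100 nM of the androgen dihydrotestosterone (DHT). DHT was given together with R-spondin1 in every library that had it, and the contrast of RD7 with R is DHT on top of R-spondin1. The age of the mice, the separate origin of the 3 libraries of a group and the matrix that held the organoids are not given in the sources used here, so p-values measure the spread between libraries, which may be technical.

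Upstream sequence was at hand for 5 of the 9 genes (Itgb1, Itga3, Col17a1, Lamb3 and Dst) in RefSeq promoter windows on GRCm38.p6. It is shown for 1 start site each of both β1-integrin partners, the transmembrane collagen and a laminin chain, because these genes are compared below at the RNA level. Each sequence runs 5′ to 3′ toward the start site and stops before the first annotated exon base. The windows are chr8:128685404-128685653 (plus strand) for Itgb1, chr11:95076802-95076964 (minus strand) for Itga3, chr19:47692095-47692292 (minus strand) for Col17a1 and chr1:193301744-193301992 (plus strand) for Lamb3. Capitals mark AGAACA, the half-site of the androgen receptor motif.
Itgb1: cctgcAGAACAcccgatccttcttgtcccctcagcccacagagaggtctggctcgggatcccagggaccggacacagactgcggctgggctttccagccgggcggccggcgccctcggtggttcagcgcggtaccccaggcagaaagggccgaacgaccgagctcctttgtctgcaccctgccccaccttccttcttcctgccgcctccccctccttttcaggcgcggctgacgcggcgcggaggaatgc
Itga3: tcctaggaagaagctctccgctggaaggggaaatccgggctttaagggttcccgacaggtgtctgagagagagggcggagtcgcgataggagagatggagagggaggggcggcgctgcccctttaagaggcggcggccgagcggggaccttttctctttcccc
Col17a1: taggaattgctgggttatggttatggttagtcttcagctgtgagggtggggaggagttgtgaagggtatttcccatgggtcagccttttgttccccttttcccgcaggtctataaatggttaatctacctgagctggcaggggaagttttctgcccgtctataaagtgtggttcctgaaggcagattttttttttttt
Lamb3: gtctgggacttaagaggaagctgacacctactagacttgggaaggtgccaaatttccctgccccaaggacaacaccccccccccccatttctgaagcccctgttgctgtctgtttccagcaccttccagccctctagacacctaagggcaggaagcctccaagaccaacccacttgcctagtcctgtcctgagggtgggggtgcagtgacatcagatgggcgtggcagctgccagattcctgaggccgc
In the full 250-base windows, both strands were searched for 4 motifs, with overlaps between motifs allowed. The motifs were TGANTCA for AP-1, AGAACA for the androgen receptor, CTTTGA for TCF/LEF factors and, by name, the p53-family half-site. The 1 match in the 8 windows of these 5 genes was the AGAACA of Itgb1, 245 bases before the start site. Among 32851 RefSeq windows of the same length, 16.1% held the androgen receptor half-site, 6.75% the AP-1 motif, 13.8% the TCF/LEF motif and 7.13% the p53-family half-site. A match describes these letters in this window and is not a bound site.

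Values are FPKM, which are reads scaled by the length of the gene and by the reads counted in the library. Levels set beside each other between genes depend on the length used for each gene. Reads counted ranged from 6505859 in BM 1 to 24141017 in BM 2, and each of the 9 genes had between 471 reads (Lama3 in RD7 2) and 24546 reads (Itgb1 in BM 2) in a library. Basal markers were high in every library, with Krt5 between 2292 and 3525 FPKM, Krt14 between 1588 and 2011, and Trp63 between 22.2 and 54.2. The luminal keratin gene Krt8 was also present, between 609 and 1255 FPKM. The pan-leukocyte gene Ptprc was at most 0.00646 FPKM, the endothelial gene Pecam1 at most 0.295 and the neuroendocrine gene Chga at most 0.245. Libraries of 1 group differed in a way that followed gene length. Across the 15867 genes tested, RD7 2 fell below the other RD7 libraries in longer genes (Spearman rho -0.38, a description across genes). BM 2 and R 3 lay above their own groups in longer genes (rho 0.31 and 0.34). All 9 adhesion genes were longer (4081 to 41155 bases) than the median gene tested (3563 bases). For these 9 genes, values without RD7 2, BM 2 or R 3 are therefore given where a call rests on them.

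Each of the 9 adhesion genes had its highest mean in BM and its lowest in RD7. Together they took 0.57%, 0.557% and 0.436% of all reads in BM 1 to 3, 0.36%, 0.339% and 0.439% in R 1 to 3, and 0.29%, 0.176% and 0.213% in RD7 1 to 3. The share was 0.521% ± 0.0741 in BM, 0.379% ± 0.053 in R and 0.226% ± 0.0584 in RD7 (mean ± SD, n = 3 libraries each), and the R and BM libraries overlapped. RD7 2 was the lowest of all 9 libraries for 8 of the 9 genes, and RD7 3 for Lamb3. The highest library was BM 1 for 5 genes and BM 2 for 4. In these bulk samples, fewer cells of a type and less RNA per cell cannot be told apart.

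**Figure D1:**
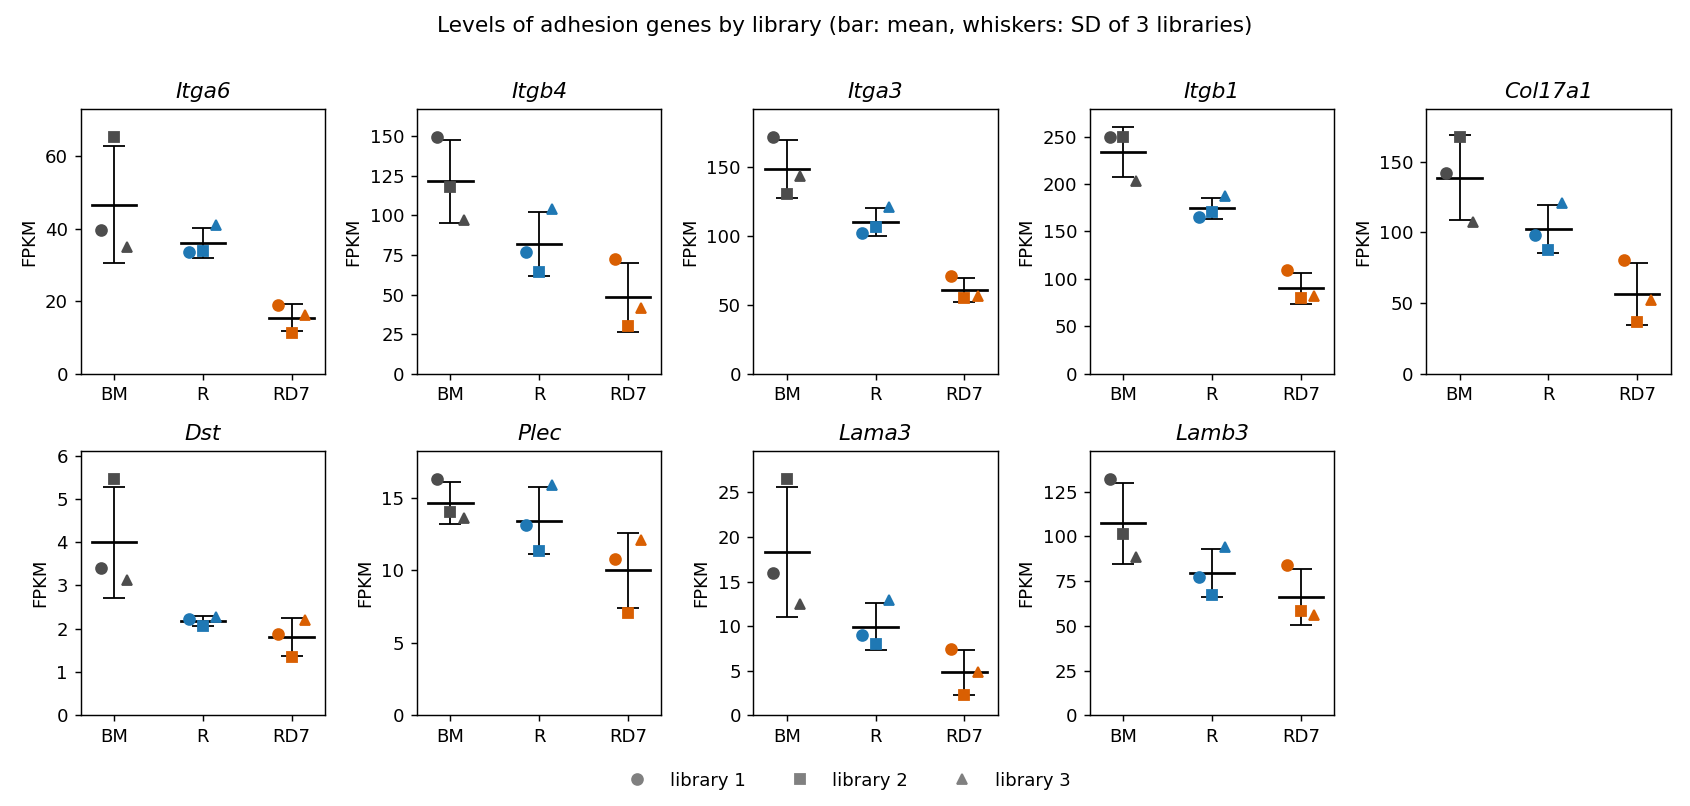
FPKM (y axis, linear, from 0) of the 9 adhesion genes in each library of BM, R and RD7, with the marker shape giving the library number, a bar at the group mean and whiskers of 1 SD (n = 3). Itga3 and Itgb1 fall into 3 separate ranges, with BM above R and R above RD7, while RD7 libraries of Itgb4, Lamb3, Dst and Plec reach into the range of R.

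By limma on log2(FPKM + 0.5), none of the 9 genes was called in R against BM at an adjusted p under 0.05, where 5.64% of all genes tested were called lower and 4.39% higher. The unadjusted limma p in that comparison was 0.018 for Itga3, 0.022 for Itgb1 and 0.008 for Dst, all lower. How many of all genes tested had an unadjusted p as small was not counted. In RD7 against R, Itga6, Itga3, Itgb1 and Col17a1 were called lower and none higher, 4 of 9, where 17.7% of all genes were called lower. In RD7 against BM all 9 were called lower, where 25.4% of all genes were called lower. The median log2 fold change of the 9 genes was -0.43, -0.85 and -1.34 in these 3 comparisons, beside 0.02, -0.09 and -0.07 over all genes tested. The comparisons share groups, and RD7 against BM is the sum of the others.

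The groups did not overlap, with the first group named the lower, for 3 of 9 genes in R against BM (Itga3, Itgb1 and Dst), 5 in RD7 against R (Itga6, Itga3, Itgb1, Col17a1 and Lama3) and 9 in RD7 against BM. The same was true of 14.4%, 30.1% and 29.3% of all genes tested. In RD7 against R, 43.0% of all calls were higher, and this share became 54.0% with median-of-ratios scaling and 53.2% with the trend over gene length removed. The count of adhesion genes called lower was 4 and 5 under those settings, where 13.7% and 14.7% of all genes tested were called lower, and none was called higher.

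**Figure D2:**
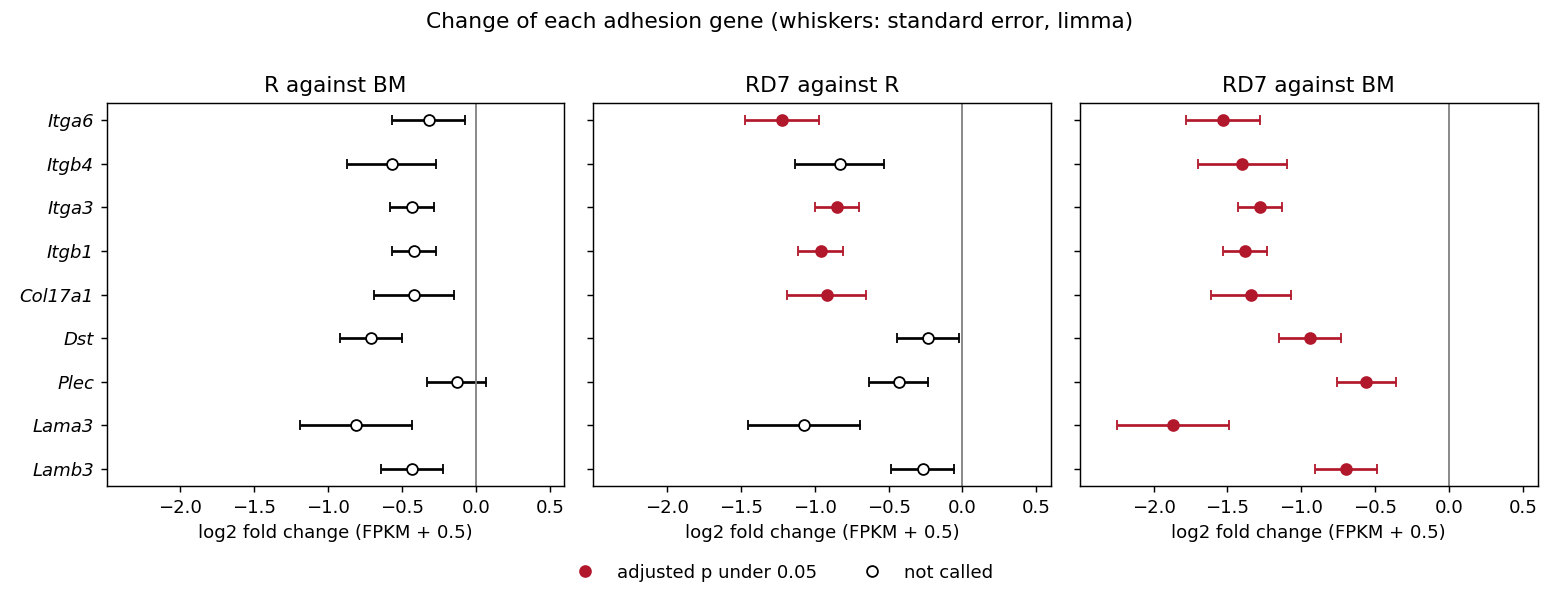
Log2 fold change on the log2(FPKM + 0.5) scale (x axis) of each adhesion gene in the 3 comparisons between BM, R and RD7, with whiskers of 1 standard error from limma. Filled points passed an adjusted p of 0.05: none in R against BM, 4 in RD7 against R, and all 9 in RD7 against BM.

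Among the receptors, Itga6 encodes the α6 chain, which pairs with β4 in hemidesmosomes and with β1 elsewhere (chromosome 2, 71745616 to 71858416, plus strand, GRCm38). Its level was 39.8, 65.2 and 35.1 FPKM in BM 1 to 3, 33.5, 33.9 and 41.0 in R 1 to 3, and 19.0, 11.4 and 16.2 in RD7 1 to 3. All RD7 libraries lay below all others, whereas R and BM overlapped. From R to RD7 the mean fell from 36.1 ± 4.24 to 15.5 ± 3.87 FPKM (n = 3 each), a log2 fold change of -1.22 ± 0.25 (SE; limma adjusted p = 0.0047). For R against BM, where BM averaged 46.7 ± 16.2, it was -0.32 ± 0.25 (adjusted p = 0.43).

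Itgb4 encodes the β4 chain, whose long cytoplasmic tail binds plectin (chromosome 11, 115974709 to 116008412, plus strand). It stood at 149, 118 and 97.1 FPKM in BM 1 to 3, 77.1, 64.4 and 104 in R 1 to 3, and 72.6, 30.2 and 41.6 in RD7 1 to 3. RD7 1 was above R 2, and R 3 was above BM 3, so that each group overlapped the next, but no RD7 library reached a BM library. The log2 fold change of RD7 against R was -0.83 ± 0.30 (adjusted p = 0.062), and leaving out RD7 1 gave -1.17 (0.0088), RD7 2 -0.54 (0.22), RD7 3 -0.77 (0.16) and R 3 -0.64 (0.2). Against BM, Itgb4 fell by 1.40 ± 0.30 on the log2 scale (adjusted p = 0.0053), from 121 ± 25.9 to 48.1 ± 22.0 FPKM. B230344G16Rik, on the opposite strand, shares 7.66% of the exon bases of Itgb4, and the kit does not mark strand.

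Itga3 encodes the α3 chain of the laminin receptor α3β1 (chromosome 11, 95044474 to 95076801, minus strand). It stood at 171, 130 and 143 FPKM in BM 1 to 3, 102, 106 and 121 in R 1 to 3, and 70.6, 54.9 and 56.5 in RD7 1 to 3. The 3 groups did not overlap. From 109 ± 9.96 FPKM in R to 60.7 ± 8.63 in RD7 the log2 fold change was -0.85 ± 0.15 (adjusted p = 0.0021). From 148 ± 20.7 FPKM in BM to R it was -0.43 ± 0.15 (adjusted p = 0.11).

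Itgb1 encodes the β1 chain shared by many integrins (chromosome 8, 128685654 to 128733200, plus strand). It had the highest mean of the 9 genes in each group, with 249, 249 and 203 FPKM in BM 1 to 3, 165, 171 and 187 in R 1 to 3, and 109, 79.7 and 81.8 in RD7 1 to 3. Again the 3 groups did not overlap. From R (174 ± 11.6 FPKM) to RD7 (90.2 ± 16.5) it fell by 0.96 ± 0.15 on the log2 scale (adjusted p = 0.0011), and the change from BM to RD7 was -1.38 (adjusted p = 9.7e-05). The change from BM (234 ± 26.7) to R was -0.42 ± 0.15 (adjusted p = 0.13), and without BM 3 it was -0.52 (adjusted p = 0.04).

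Col17a1, the collagen XVII chain that crosses the membrane beside α6β4, lies on chromosome 19 (47646344 to 47692094, minus strand). It stood at 142, 167 and 107 FPKM in BM 1 to 3, 98.4, 87.8 and 121 in R 1 to 3, and 80.1, 36.7 and 52.0 in RD7 1 to 3. Every RD7 library was below every R library, while R 3 was above BM 3. From 102 ± 16.9 FPKM in R to 56.3 ± 22.0 in RD7 the log2 fold change was -0.92 ± 0.27 (adjusted p = 0.027). That call was lost without RD7 2 (log2 fold change -0.65, adjusted p = 0.097), RD7 3 (-0.90, 0.078), R 1 (-0.94, 0.06) or R 3 (-0.79, 0.099), and with no filter on low values (-0.92, 0.065). R against BM gave -0.42 ± 0.27 (adjusted p = 0.34).

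The plakins Dst and Plec link the junction to keratin filaments. Dst (chromosome 1, 33908225 to 34308661, plus strand) was the lowest of the 9 genes per length, at 3.40, 5.46 and 3.12 FPKM in BM 1 to 3, 2.22, 2.06 and 2.28 in R 1 to 3, and 1.88, 1.35 and 2.20 in RD7 1 to 3. BM and R did not overlap in Dst, and RD7 overlapped R. The log2 fold change was -0.71 ± 0.21 for R against BM (adjusted p = 0.069) and -0.23 ± 0.21 for RD7 against R (adjusted p = 0.43). The former was -0.84 without BM 3 (adjusted p = 0.026), -0.48 without BM 2 (0.19) and -0.39 with the length trend removed (0.14), and Dst is the longest of the 9 genes. Against BM, at 4.0 ± 1.28 FPKM, RD7 was lower at 1.81 ± 0.428 (adjusted p = 0.0067).

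Dst has 14 coding transcripts in GENCODE M21, 776 to 23279 bases long, while the merged exons span 41155 bases. Its epithelial form is much shorter than its neuronal and muscle forms, and gene-level FPKM does not separate them, so the low level of Dst is that of the whole gene and of no single form.

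Plec (chromosome 15, 76170974 to 76232574, minus strand) encodes plectin, which is also found at other junctions and organelles. It stood at 16.3, 14 and 13.6 FPKM in BM 1 to 3, 13.1, 11.3 and 15.9 in R 1 to 3, and 10.8, 7.07 and 12.1 in RD7 1 to 3. RD7 overlapped R and lay below BM. The log2 fold change was -0.13 ± 0.20 for R against BM (adjusted p = 0.71) and -0.43 ± 0.20 for RD7 against R (adjusted p = 0.14). Against BM it was -0.56 (adjusted p = 0.045), the closest of the 9 to the threshold. With the length trend removed it was -0.14 (adjusted p = 0.46), without RD7 2 it was -0.34 (0.16), and without BM 1 it was -0.48 (0.13). The call was also lost without BM 2 (0.081), RD7 1 (0.051), R 1 (0.065) or R 2 (0.053).

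Laminin-332, the ligand of both receptors, is a secreted trimer whose α3 chain is encoded by Lama3 and β3 chain by Lamb3. Lama3 (chromosome 18, 12333819 to 12583013, plus strand) stood at 16.0, 26.5 and 12.5 FPKM in BM 1 to 3, 9.01, 7.97 and 12.9 in R 1 to 3, and 7.39, 2.29 and 4.81 in RD7 1 to 3. All RD7 libraries were below all R libraries, and R 3 was just above BM 3. The log2 fold change of RD7 against R was -1.07 ± 0.38 (adjusted p = 0.054), and leaving out RD7 1 gave -1.41 (0.019), RD7 2 -0.66 (0.18), RD7 3 -1.13 (0.11) and R 3 -0.88 (0.17). Leaving out BM 2 or BM 3, which enter this contrast through the pooled spread alone, gave an adjusted p of 0.04 and 0.034. Against BM it was -1.87 ± 0.38 (adjusted p = 0.0036), the largest change among the 9 genes in that comparison, from 18.3 ± 7.28 to 4.83 ± 2.55 FPKM.

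Lamb3 (chromosome 1, 193207699 to 193343878, plus strand) encodes the β3 chain. It stood at 132, 101 and 88.5 FPKM in BM 1 to 3, 77.1, 67.2 and 93.8 in R 1 to 3, and 84.2, 58.1 and 55.8 in RD7 1 to 3. RD7 1 lay inside the range of R, and R 3 inside that of BM. RD7 against R gave a log2 fold change of -0.27 ± 0.21 (adjusted p = 0.34), and R against BM gave -0.43 ± 0.21 (adjusted p = 0.23). From BM (107 ± 22.6 FPKM) to RD7 (66.1 ± 15.8) it was -0.70 (adjusted p = 0.020), and this call was lost without BM 1 (-0.54, adjusted p = 0.075), RD7 2 (-0.62, 0.076) or RD7 3 (-0.59, 0.076).

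Ratios within a library do not depend on how libraries are scaled, and were used to ask whether partner chains moved together. The ratio of Lama3 to Lamb3 FPKM was 0.121, 0.261 and 0.141 in BM 1 to 3, 0.117, 0.119 and 0.137 in R 1 to 3, and 0.0877, 0.0395 and 0.0862 in RD7 1 to 3. It was lower in every RD7 library (0.0711 ± 0.0274) than in every R (0.124 ± 0.0114) and BM library (0.174 ± 0.0758), and R and BM overlapped. Lama3 RNA was thus lower in RD7 relative to Lamb3. With 3 libraries against 3, an exact two-sided permutation test cannot give a p below 0.10, so the ratios were not tested. Lama3 is longer (10745 bases) than Lamb3 (6612), so a shift between libraries that follows gene length can move this ratio. Its highest value was in BM 2 and its lowest in RD7 2, which differed from their groups in longer genes. The part of gene length in this ratio was not tested. Lama3 also has 2 coding transcripts, of 5551 and 10548 bases, which gene-level FPKM does not separate.

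The ratio of Itga6 to Itgb4 was 0.267, 0.551 and 0.361 in BM 1 to 3, 0.434, 0.526 and 0.394 in R 1 to 3, and 0.262, 0.377 and 0.389 in RD7 1 to 3. RD7 lay below R by a small margin and overlapped BM. Itga3 to Itgb1 was 0.637 ± 0.101 in BM, 0.627 ± 0.0152 in R and 0.675 ± 0.0252 in RD7. RD7 lay just above R in that ratio and overlapped BM. The level of a ratio depends on the lengths used for both genes, so it is compared between groups and not read as the number of chains.

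**Figure D3:**
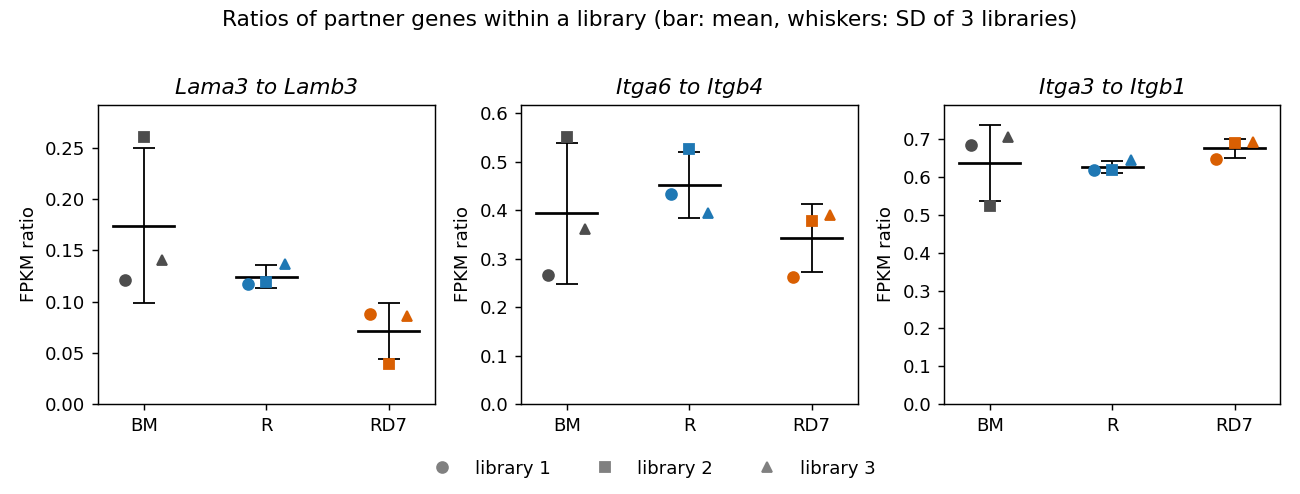
Ratio of FPKM of partner genes within each library (y axis, linear, from 0) for Lama3 to Lamb3 and the integrin pairs, with a bar at the group mean and whiskers of 1 SD (n = 3). The ratio of Lama3 to Lamb3 is lower in the RD7 libraries than in all R and BM libraries, and the integrin ratios in RD7 overlap those in BM.

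Per length, the order in BM was Itgb1, Itga3, Col17a1, Itgb4, Lamb3, Itga6, Lama3, Plec and Dst, from 234 to 4.0 FPKM on average. Itga3, Col17a1, Itgb4 and Lamb3 each overlapped the next in that run, and so did Lama3 and Plec, while gaps without overlap stood after Itgb1, Lamb3, Itga6 and Plec. In R the order was the same except that Plec (13.4 FPKM) stood above Lama3 (9.95), and those genes overlapped. In RD7 Lamb3 (66.1 FPKM) took the place after Itgb1 (90.2), ahead of Itga3 (60.7), Col17a1 (56.3) and Itgb4 (48.1). From Itgb1 to Itgb4, neighbours in this order overlapped. Order and gaps in all groups depend on the length used for each gene. Itga6 was scaled by 9025 bases, beside a longest coding transcript of 4310, and Itgb4 by 7015 beside 6208.

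The other laminin chains were mixed. Of 8 read here, 6 passed the filter, and Lama2 and Lamc3 were at most 0.0505 FPKM in any library. None of the 6 was called in R against BM. In RD7 against R 2 were lower and 1 higher (17.7% and 13.4% of all genes). In RD7 against BM 4 were lower and 1 higher (25.4% and 21.6% of all genes). Lamb1, the laminin β1 chain, fell from 6.72, 5.99 and 9.63 FPKM in R 1 to 3 to 1.94, 0.813 and 1.30 in RD7 1 to 3, without overlap. Its log2 fold change of -2.12 ± 0.26 (adjusted p = 0.00019) was larger than that of any of the 9 adhesion genes in this comparison. Lama4 fell from 1.23 ± 0.266 to 0.175 ± 0.126 FPKM (adjusted p = 0.0015). Lama1 was called higher (adjusted p = 0.0061) but stayed at or below 0.379 FPKM in every library. Lama5 and Lamc1, whose chains can pair with that of Lamb1, were lower in RD7 than in BM (-0.89, adjusted p = 0.043, and -1.17, adjusted p = 0.011). Their log2 fold changes in RD7 against R were -0.18 (0.69) and -0.17 (0.70). Lama5 (11388 bases) stood at 11.6, 4.59 and 7.49 FPKM in RD7 1 to 3, and its call without RD7 2 is not given here.

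Of 15 other integrin subunits, 10 passed the filter. In R against BM 3 were lower (Itga1, Itga7 and Itgb8), where 5.64% of all genes tested were lower. In RD7 against R 3 were lower (Itga5, Itga7 and Itga8) and 2 higher (Itgb5 and Itgb8), beside 17.7% and 13.4% of all genes. In RD7 against BM 7 were lower and 1 higher, beside 25.4% and 21.6%. Itgb5, a partner of the αv chain, stood at 33.6, 32.5 and 36.9 FPKM in R 1 to 3 and 70.8, 62.7 and 56.6 in RD7 1 to 3, opposite in direction to Itgb1. Its log2 fold change was 0.87 ± 0.15 (adjusted p = 0.0015), and it was higher than in BM too (0.47, adjusted p = 0.026). Itgb8, another αv partner, fell from 1.86 ± 0.953 FPKM in BM to 0.41 ± 0.11 in R (adjusted p = 0.011) and rose to 1.48 ± 0.438 in RD7 (adjusted p = 0.012), and both calls were lost without R 2 (adjusted p = 0.056 and 0.051). Itgav itself was 16.8 ± 6.71 FPKM in BM, 7.23 ± 1.74 in R and 4.76 ± 1.95 in RD7, and was called in RD7 against BM (-1.71, adjusted p = 0.0025). Itga5, the fibronectin receptor chain, fell from 7.10 ± 1.43 to 3.04 ± 0.905 FPKM in RD7 against R (adjusted p = 0.0095), and Itga8 from 1.54 ± 0.369 to 0.359 ± 0.189 (adjusted p = 0.0078). Itga7 was below 1.2 FPKM throughout, and its call in R against BM (adjusted p = 0.042) was lost without any 1 library other than BM 3 and with a replicate block (0.072).

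**Figure D4:**
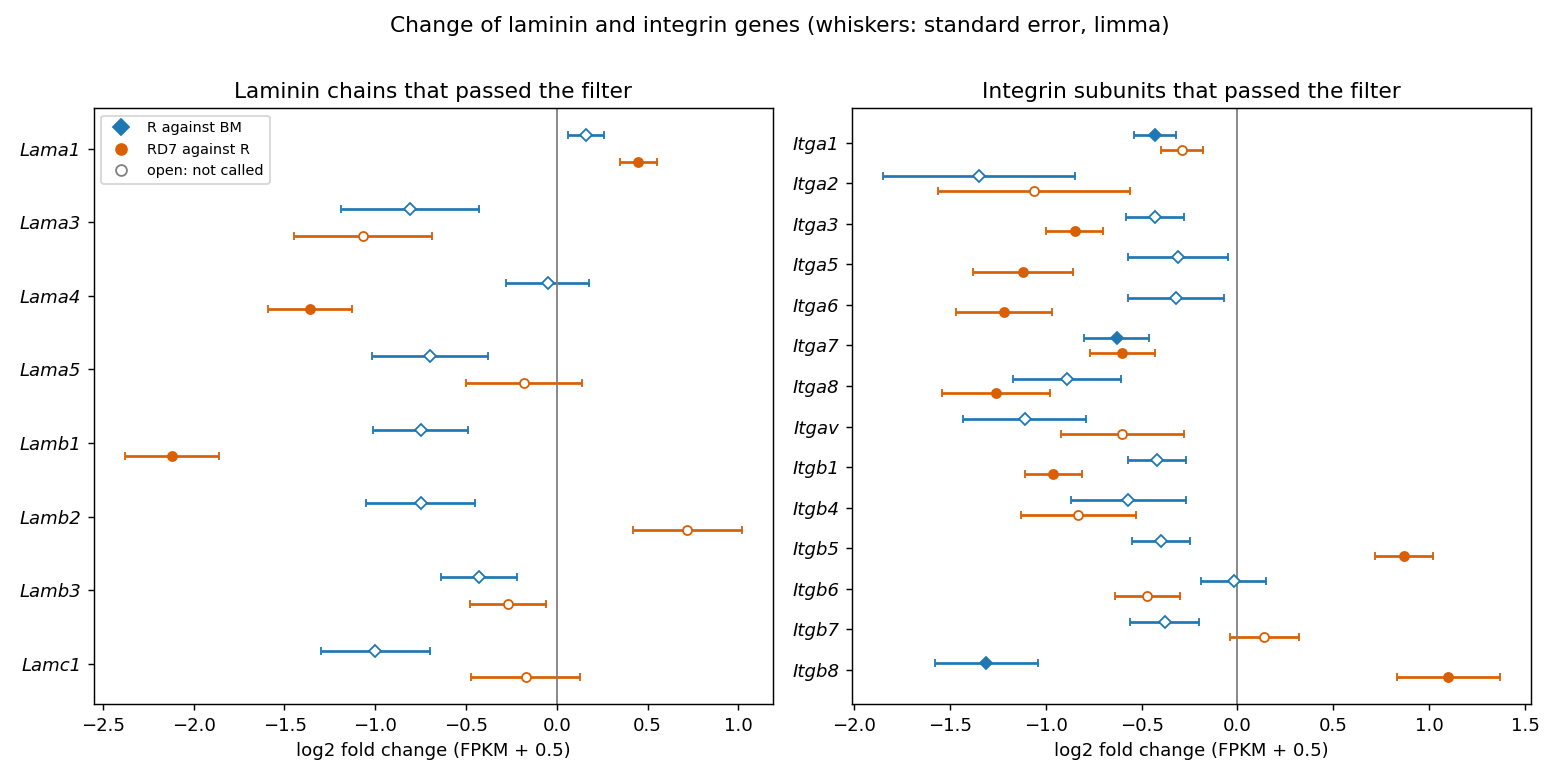
Log2 fold change on the log2(FPKM + 0.5) scale (x axis) of the laminin chains and integrin subunits read here that passed the filter, in R against BM (diamonds) and RD7 against R (circles), with whiskers of 1 standard error from limma; filled points passed an adjusted p of 0.05. Most points lie left of 0, and the called points right of 0 are Lama1, Itgb5 and Itgb8 in RD7 against R.

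Of 17 other basement membrane genes, 13 passed the filter, with 3 lower in R against BM (5.64% of all genes tested were lower). In RD7 against R 5 were lower and 1 higher, beside 17.7% and 13.4% of all genes. In RD7 against BM 9 were lower and 1 higher, beside 25.4% and 21.6%. Nid1, encoding nidogen, which bridges laminin and collagen IV, stood at 9.71, 10.6 and 7.09 FPKM in BM 1 to 3 and at 1.10, 1.23 and 1.45 in R 1 to 3. This was a log2 fold change of -2.44 ± 0.18 (adjusted p = 1.3e-05), where none of the 9 adhesion genes was called. It fell again to 0.196 ± 0.0593 FPKM in RD7 (adjusted p = 0.0003). Frem2 fell from 1.10 ± 0.15 FPKM in BM to 0.142 ± 0.0608 in R (adjusted p = 4.7e-05). Between R and RD7, Hspg2 (perlecan) fell from 5.51 ± 2.15 to 1.60 ± 1.07 FPKM (adjusted p = 0.012) and Col18a1 from 46.0 ± 8.74 to 16.3 ± 6.11 (adjusted p = 0.0015). Col4a1, a collagen IV chain, rose from 19.8 ± 5.59 to 50.6 ± 21.2 FPKM (adjusted p = 0.011). Of the other collagen IV chains tested, Col4a5 and Col4a6 were called lower (adjusted p = 0.027 and 0.039) and Col4a2 was not called (0.58). Col7a1, the anchoring fibril collagen that lies beneath hemidesmosomes, was not called in any comparison, at 8.04 ± 1.18, 7.96 ± 2.29 and 12.1 ± 6.48 FPKM in BM, R and RD7.

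On the inner side of the integrins, all 24 partner and focal adhesion genes were tested. Of these, 2 were lower in R against BM, where 5.64% of all genes tested were lower. In RD7 against R 4 were lower and 3 higher, beside 17.7% and 13.4% of all genes. The median log2 fold change of the 24 genes in that comparison was -0.07, near the -0.09 over all genes tested. In RD7 against BM 10 were lower and 2 higher, beside 25.4% and 21.6% of all genes. Fermt2 (kindlin-2), which activates β integrins, fell from 6.63 ± 0.948 FPKM in BM to 3.23 ± 0.361 in R (adjusted p = 0.0028), and Parva, of the complex with integrin-linked kinase, from 21.5 ± 2.40 to 13.1 ± 0.957 (adjusted p = 0.011). The call of Parva was lost without R 1 (adjusted p = 0.064) or R 2 (0.057). In RD7 against R, Tns4 fell from 58.2 ± 7.94 to 27.3 ± 8.18 FPKM (adjusted p = 0.0029) and Flna (filamin A) from 77.9 ± 22.7 to 35.8 ± 18.9 (adjusted p = 0.036). Flna was not called without BM 1, R 1, R 3, RD7 2 or RD7 3, where its adjusted p was 0.051 to 0.13, or with no filter on low values (0.087). Itgb1bp1, which binds the β1 tail and limits its activation, rose from 5.79 ± 1.09 to 9.17 ± 1.26 FPKM (adjusted p = 0.029), against the direction of Itgb1, and was not called without R 2, R 3, RD7 2 or RD7 3 (adjusted p 0.092 to 0.11), with no filter on low values (0.056) or with a replicate block (0.062). Tns1 rose from 0.799 ± 0.151 to 2.03 ± 0.711 FPKM (adjusted p = 0.016), and was not called without R 1 (0.056). Cd151, the tetraspanin that associates with α3β1 and α6β4, was 31.1 ± 16.0 FPKM in BM, 36.8 ± 1.06 in R and 44.3 ± 4.34 in RD7 and was not called in any comparison.

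The keratins to which hemidesmosomes attach were read beside the junction genes. Of 8 plakin and keratin genes, 7 were found and tested. In R against BM 1 was higher (Krt15), beside 4.39% of all genes. In RD7 against R 1 was lower (Krt5), beside 17.7%. In RD7 against BM 1 was higher (Krt15) and 1 lower (Macf1), beside 21.6% and 25.4%. Krt5 stood at 2945, 2363 and 2494 FPKM in BM 1 to 3, 3510, 3417 and 3525 in R 1 to 3, and 2442, 2292 and 2459 in RD7 1 to 3. It was called lower in RD7 than in R (-0.54, adjusted p = 0.0086), and RD7 against BM was -0.11 (adjusted p = 0.47), where all 9 adhesion genes were called lower. Krt14 gave 0.00 ± 0.13 in RD7 against BM (adjusted p = 0.99). Krt5 (2190 bases) and Krt14 (1758) are shorter than the median gene tested (3563), whereas all 9 adhesion genes are longer. Log2 fold changes in RD7 against BM fell with gene length (Spearman rho -0.38 across genes). The part of length in this contrast between keratins and adhesion genes was not tested. Krt15 rose from 3094 ± 184 FPKM in BM to 4543 ± 205 in R (adjusted p = 0.017), and this call was lost without BM 2 (0.068), R 1 (0.094) or R 2 (0.091), with a replicate block (0.069) and with the length trend removed (log2 fold change 0.35, 0.091).

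Cell type markers were read beside these changes. Of all genes tested, 4.39% were called higher and 5.64% lower in R against BM. These shares were 13.4% and 17.7% in RD7 against R, and 21.6% and 25.4% in RD7 against BM. The summed FPKM of 6 basal markers was 7033 to 7926 in BM, 9730 to 10354 in R and 8354 to 9459 in RD7. Krt15 had the largest gain in FPKM among the 6 from BM to RD7 (3094 ± 184 to 4721 ± 447). Krt5 and Krt14 were not called in that comparison. Trp63 was called lower there (limma adjusted p = 0.045), although RD7 1 (33.4 FPKM) lay above BM 3 (31.3). No other setting is given here for the Trp63 call. Among the 6 basal markers 3 were higher and none lower in R against BM. In RD7 against R 3 were lower (Krt5, Trp63 and Snai2) and 1 higher, and in RD7 against BM 2 were higher and 1 lower. The sum of 6 luminal markers was 2171 to 2713 in BM, 1702 to 2001 in R and 1703 to 2134 in RD7, mostly from Krt8 and Krt18. Of the 6, 3 were lower in R against BM (Krt8, Prom1 and Spdef). In RD7 against R 3 were higher (Prom1, Hoxb13 and Spdef) and 2 lower (Krt18 and Cd24a). In RD7 against BM 2 were higher (Hoxb13 and Spdef) and 2 lower (Krt8 and Krt18). Mean FPKM in BM, R and RD7 was 35.3, 43.0 and 246 for Hoxb13, 5.59, 1.95 and 16.7 for Spdef, and 61.2, 12.3 and 47.8 for Prom1. The sum of 7 mesenchymal markers rose from 22.9 to 29.2 in R to 65.1 to 93.2 in RD7, nearly all of it Dcn (18.8 to 23.7, then 63.9 to 91.7), while Col1a1, Col3a1 and Vim were at most 0.362 FPKM in both groups. Of the 7, 1 was higher (Dcn) and 4 lower (Col1a1, Col3a1, Vim and Acta2) in RD7 against R, and Acta2, at 12.4 ± 3.43, 3.69 ± 0.984 and 1.29 ± 0.285 FPKM in BM, R and RD7, was called lower in all 3 comparisons. In R against BM 1 was higher (Dcn) and 2 lower (Vim and Acta2), and in RD7 against BM Col3a1 was lower as well. Sums of immune (5 genes, at most 4.68), endothelial (4 genes, at most 0.536) and neuroendocrine markers (4 genes, at most 0.917) were low in every library, and no marker of any list was at 0 in all libraries. Of the 3 immune markers tested, 2 were higher in R and in RD7 than in BM, Cd68 (1.21 ± 0.364, 2.64 ± 0.434 and 2.39 ± 0.647 FPKM in BM, R and RD7) and Lyz2 (listed at 0 in all BM libraries, at most 0.656 in R and 1.40 in RD7), and none was called in RD7 against R. The part of these marker shifts in the adhesion gene changes was not tested.

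Gene length also moved with the comparisons. Across the 15867 genes tested, Spearman's rho between gene length and log2 fold change was -0.33 from BM to R, -0.22 from R to RD7 and -0.38 from BM to RD7, as a description across genes, which are not independent. With this trend removed, 0, 5 and 7 of the 9 adhesion genes were called lower in the 3 comparisons, where 6.52%, 14.7% and 20.9% of all genes tested were called lower under that setting, with Itga6, Itga3, Itgb1, Col17a1 and Lama3 called in RD7 against R. Lamb3 (-0.39, adjusted p = 0.075) and Plec were the genes no longer called in RD7 against BM.

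Genes with the profiles most like 3 of the adhesion genes were sought among 8617 genes with a mean of at least 5 FPKM, by the root mean square difference of centred log2(FPKM + 0.5) values over the 9 libraries. For Itgb4 they were Man2a2 (0.095), Prag1 (0.102) and Plxnb2 (0.118). For Col17a1 they were Glce (0.041), Adnp2 (0.089) and Pom121 (0.092). For Lamb3 they were Arhgef10l (0.061), Brd1 (0.069) and Pip5k1c (0.07). Glce, the closest of these, averaged 8.95, 6.75 and 3.49 FPKM in BM, R and RD7.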

How the data were processed

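Organoid polyadenylated RNA was amplified with a SmartSeq kit, per the labels' protocols. The authors deposited FPKM per Ensembl gene and library. Tools listed in the submitters' processing notes are STAR 2.6.1a, featureCounts, CASAVA 1.9 and edgeR 3.24.1, with the build GRCm38 and no roles, annotation release or strand setting. Symbols and coordinates came from GENCODE M21 (99.5% of identifiers matched). Reads counted were read back from FPKM, gene length and the library's smallest step. They were whole within 0.01 read for 85.7% of the 26813 genes above 0, and served for depth, the filter and 1 alternative.

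The filter asked for 0.5 CPM or more in 3 or more libraries. Values were fitted as log2(FPKM + 0.5) by limma 3.58.1 (R 4.3.3) in a model of the 3 group means that used all 9 libraries, left 6 residual degrees of freedom and moderated variances with a trend and robust settings. Tests were two-sided, with Benjamini-Hochberg adjustment across all 15867 genes and calls at an adjusted p under 0.05. Fold changes on this scale understate those of low genes. The adhesion genes and lists were chosen with earlier results of these data known. Named genes were the 9 and, per list, up to 2 called genes with the highest and 2 with the lowest change in R against BM and in RD7 against R. 2 genes of the lists are not reported here. Further list genes are given by their values or were chosen after these were seen. Python 3.11.15 (pandas 2.3.3, numpy 2.4.6, scipy 1.17.1, matplotlib 3.10.9) made tables and plots.

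Alternatives were the pseudocount, filter, scaling, groups fitted, a replicate block, limma-voom, plain settings, removal of the length trend and leaving out each library.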

Additional observations from a re-analysis of the deposited data

How the results depend on the processing

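All 9 adhesion genes kept a negative sign in every comparison and setting run, 19 beside the reported one, except Plec in R against BM, which was 0.13 (adjusted p = 0.62) with the length trend removed. The count called lower in R against BM was 0 in all but limma-voom on reads read back and the removal of BM 3. Limma-voom called 1 (Dst), where 924 of the 15867 genes tested were called lower. Leaving out libraries gave 0 to 2 (Dst and Itgb1 without BM 3). The same removal took all calls in R against BM from 696 higher and 895 lower to 2089 and 1313, and the cause was not tested. In RD7 against R the count was 3 to 6 over all settings and when leaving out libraries, with Itga6, Itga3 and Itgb1 called in each. Over all genes, the calls lower in that comparison ranged from 1710 without R 3 to 3336 with the compared groups alone, of 15867 tested. With no filter on low values they were 2221 of 26813. In RD7 against BM the count of adhesion genes called lower was 7 to 9. All calls lower there ranged from 2616 without RD7 2 to 4443 without BM 3, of 15867 tested, and were 3274 of 26813 with no filter. Plec was also lost in RD7 against BM with no filter (adjusted p = 0.089), with the compared groups alone (0.072) and with median-of-ratios scaling (0.061). Lama3 in RD7 against R was gained with the compared groups alone (0.036), the length trend removed (0.04) and limma-voom (0.04), which also gained Itgb4 (0.044). Where a library is left out, its group has 2 libraries, and the spread is pooled over all groups.

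Whether libraries of the same number share an origin is not given in the labels. Correlations of their deviations from the group means did not show a pairing. They cannot decide whether one exists, because library differences that follow gene length enter them too. Correlations of deviations between libraries of the same number were -0.323, 0.076 and -0.521 for BM and R, -0.341, 0.109 and -0.087 for R and RD7, and 0.272, -0.46 and -0.006 for BM and RD7, and not every library correlated best with its own number. With the replicate number as a block, 0, 4 and 9 adhesion genes were called, as without it. Over all genes the block gave 461 higher and 700 lower in R against BM, 1739 and 2145 in RD7 against R, and 2930 and 3368 in RD7 against BM. Depth was lowest in BM 1, where each adhesion gene still had at least 911 reads.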

Other observations

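Of 8 genes listed for enzymes that process laminin-332 and other matrix proteins, 7 passed the filter. In R against BM 1 was higher and 1 lower (4.39% and 5.64% of all genes). In RD7 against R 6 were lower and none higher (17.7% of all genes were lower), and in RD7 against BM 7 were lower (25.4%). Bmp1, which trims laminin-332 and procollagens, stood at 34.1, 32.6 and 40.2 FPKM in R 1 to 3 and at 26.5, 24.6 and 21 in RD7 1 to 3 (adjusted p = 0.025 by limma). Mmp14, a membrane metalloprotease, fell from 100 ± 4.05 to 60.6 ± 4.74 FPKM (adjusted p = 0.0016). Plat, tissue plasminogen activator, fell from 10.1 ± 0.637 to 2.45 ± 0.102 FPKM (adjusted p = 6.9e-06). Mmp9 rose from 1.19 ± 0.141 FPKM in BM to 2.85 ± 0.401 in R (adjusted p = 0.0017), and in RD7 it had 6, 0 and 2 reads. Hpn, encoding hepsin, a protease reported to cut laminin-332, fell from 27.6 ± 3.78 FPKM in BM to 8.94 ± 0.482 in R (adjusted p = 6.8e-05), and was 10.6 ± 1.37 in RD7, not called against R (0.22 on the log2 scale, adjusted p = 0.27).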
